A study of Homo sapiens with 12 samples.

Results

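The genes described here are 39 listed genes of the actin cytoskeleton and of its transcriptional control by serum response factor (SRF): the regulators SRF and MYOCD, the actins, proteins that crosslink, cap or decorate actin filaments, non-muscle myosin II, focal adhesion proteins and LIM-domain proteins. They were taken by name from the 57820 gene identifiers of the count tables. Of the 39, 36 had enough reads to be tested among 16060 genes. MYOCD, CNN1 and CNN3 were not tested.

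RNA sequencing was done on TE10 and Kyse410, established human lines of esophageal squamous cell carcinoma, in a study of UHRF1, a reader of hemimethylated DNA that takes part in the maintenance of DNA methylation, and of cell migration and invasion. The 4 groups were TE10 cells stably expressing an shRNA against UHRF1 (shUHRF1), TE10 cells with a scramble control, Kyse410 shUHRF1 cells and Kyse410 scramble cells, with 3 libraries each. All 4 groups were infected cells, and polyadenylated RNA was sequenced. The labels state neither the number of hairpins nor whether the infected cells were a pool or a clone. Nor do they tie the 3 libraries of a group to separate cultures, and the p-values therefore rest on a spread between libraries that may be technical.

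SRF binds as a dimer to a short DNA element, the CArG box, and works with partners of different families. The myocardin-related factors MRTFA and MRTFB are held by monomeric actin and released when actin polymerizes, and then turn on actin and actin-binding genes. The ternary complex factors ELK1, ELK3 and ELK4 respond to MAP kinase signalling and act with SRF on immediate early genes. Myocardin (MYOCD) is the partner of smooth and cardiac muscle. Actin filaments linked to integrins at focal adhesions carry the traction of migrating cells.

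Gene reads numbered 7857662 to 12005229 per library, and levels are given as TMM-scaled CPM, reads of a gene relative to the scaled library total. UHRF1 was at 82.1, 86.8 and 88.9 CPM in TE10 shUHRF1 libraries, against 173, 179 and 184 CPM in TE10 scramble libraries, and at 42.1, 43.5 and 41.9 CPM in Kyse410 shUHRF1 libraries, against 101, 101 and 95.1 CPM in Kyse410 scramble libraries. In each line all shUHRF1 libraries were lower than all scramble libraries. The 39 genes together took 1.89 ± 0.0190% of gene reads in TE10 shUHRF1 libraries and 2.08 ± 0.00122% in TE10 scramble libraries, and 1.40 ± 0.0229% in Kyse410 shUHRF1 libraries and 1.41 ± 0.0164% in Kyse410 scramble libraries (SD, n = 3). These are bulk libraries, so fewer cells of a kind and less RNA per cell cannot be told apart.

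The promoters of several of the genes carry the letters of the SRF element. Promoter stretches from 250 bases before to 50 bases after the annotated start were read from RefSeq (GRCh38.p14) for 34 of the 39 genes. They were searched for the CArG box, a 10-base motif of CC, then only A or T, then GG. As a pattern it is the same on both strands, while the letters of a single box need not be. A box was present in 9 of the 34 genes (26.5%), against 438 of all 27305 genes with a stretch (1.60%). Counted over the first listed start of each gene, it was 7 of 34 genes (20.6%), against 351 of 27305 (1.29%). The list was drawn up by name to hold SRF and its target genes. A share above that of all genes is therefore in part built into the choice, and is no result about them. The 9 genes were SRF, ACTG1, ACTG2, ACTN1, CNN2, FHL2, TPM4, FLNA and FHL1. No stretch was at hand for MYOCD, ACTB, TAGLN, MYL9 and TNS4, which were therefore not searched. A match is a description of the letters and not a bound site, and the absence of one says only that these letters are not in the window. The stretches around the boxes of SRF, ACTG1, FHL2, ACTG2, ACTN1 and CNN2 are shown. They run 5′ to 3′ on the gene's strand, with the box in capitals. SRF and ACTG1 were taken first, then FHL2, whose rise was among the largest called changes of a knockdown. ACTG2, ACTN1 and CNN2 followed in the order of the list, and TPM4, FLNA and FHL1 are not shown. Genes with several listed starts did not hold a box at each: it was 1 of 2 starts for SRF, 1 of 4 for ACTN1 and 3 of 4 for FHL2, whose 3 stretches cover the 2 boxes shown.
SRF, chr6:43171214-43171268 (+): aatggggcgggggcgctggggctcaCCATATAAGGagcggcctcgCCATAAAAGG
ACTG1, chr17:81512859-81512918 (-): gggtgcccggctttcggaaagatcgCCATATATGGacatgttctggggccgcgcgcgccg
ACTG2, chr2:73892873-73892969 (+): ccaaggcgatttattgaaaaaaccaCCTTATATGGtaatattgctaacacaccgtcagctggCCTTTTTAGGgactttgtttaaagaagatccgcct
FHL2, chr2:105438580-105438639 (-): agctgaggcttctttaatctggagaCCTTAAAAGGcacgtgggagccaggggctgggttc
FHL2, chr2:105399076-105399135 (-): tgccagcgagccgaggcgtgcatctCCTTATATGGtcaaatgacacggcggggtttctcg
ACTN1, chr14:68977703-68977762 (-): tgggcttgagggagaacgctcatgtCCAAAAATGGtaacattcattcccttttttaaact
CNN2, chr19:1026494-1026553 (+): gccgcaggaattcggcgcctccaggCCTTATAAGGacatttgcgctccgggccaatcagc
The SRF promoter held 2 boxes, starting at positions -30 and -10 from the annotated start, and that of ACTG2 held 2, starting at -110 and -73.

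In TE10 cells the actin genes mostly fell or did not pass the test. Of the 36 tested genes, 17 fell in shUHRF1 cells (47.2%), where 20.0% of all tested genes fell, and 4 rose (11.1%), where 18.8% of all tested genes rose (edgeR quasi-likelihood test, Benjamini-Hochberg adjusted p under 0.05 over all 16060 genes). The median log2 fold change was -0.07 over the 36 genes and 0.00146 over all genes. The falls with the largest size were those of CALD1 (log2 fold change -1.10), VCL (-0.69), PDLIM7 (-0.47) and MYH10 (-0.37) among genes averaging at least 5 CPM, and the 3 such genes that rose were TPM2 (0.51), TLN1 (0.27) and VASP (0.23). At least 2-fold changes past the test were found for 3 of the 36 genes, CALD1, TAGLN and FLNC, where 6.05% of all genes had one. The shUHRF1 and scramble libraries did not overlap for 22 of the 36 genes, where 46.9% of all genes did not.

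In Kyse410 cells nearly as many of the genes rose as fell. After UHRF1 knockdown 14 of the 36 genes rose (38.9%), where 22.6% of all tested genes rose, and 15 fell (41.7%), where 26.7% of all tested genes fell and 49.3% were called in either direction. The median log2 fold change was -0.02 over the 36 genes and -0.0252 over all genes. The largest rises were those of FLNC (1.61), TNS4 (0.93), FHL2 (0.63) and CAPG (0.56), and the largest falls those of ZYX (-0.70), TNS3 (-0.60), MYL6 (-0.58) and SRF (-0.53), among genes averaging at least 5 CPM. FLNC was the 1 gene past the test with at least a 2-fold change, where 7.13% of all genes had one. The libraries of both groups did not overlap for 31 of the 36, where 55.6% of all genes did not.

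Abundant genes pass a count test more easily, and 24 of the 36 genes averaged at least 100 CPM, so the counts were also set beside the 2376 genes of that level, a limit chosen after the values were seen. In TE10 cells 11 of the 24 fell (45.8%, against 28.1% of the 2376) and 2 rose (8.33%, against 32.6%). In Kyse410 cells 10 fell (41.7%, against 46.5%) and 10 rose (41.7%, against 28.9%). These shares are descriptions, and no test of the list as a whole was made.

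**Figure D1:**
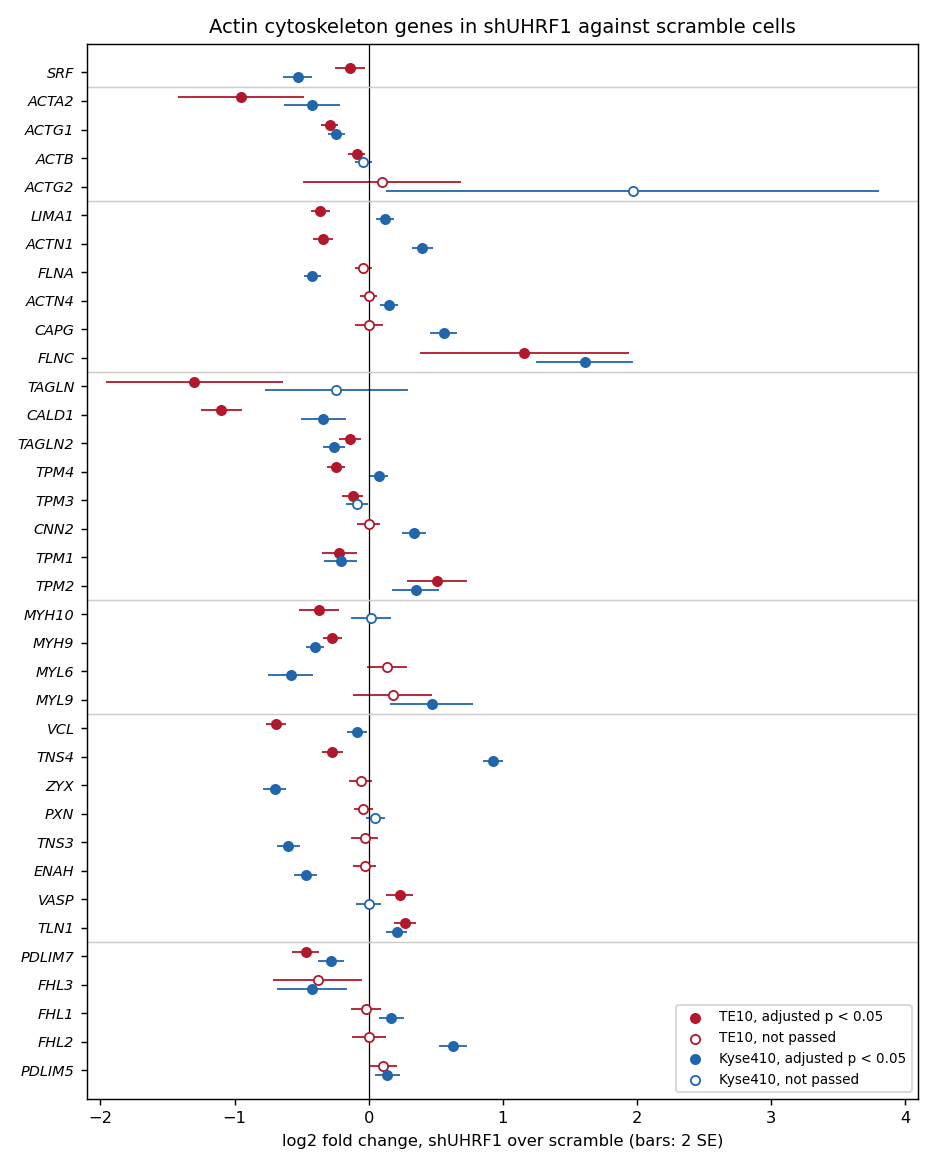
Log2 fold change of shUHRF1 over scramble cells for the 36 tested genes (horizontal axis), TE10 in red and Kyse410 in blue, grouped by role between grey lines, with bars of 2 standard errors and filled points for adjusted p under 0.05. Most filled red points lie left of 0, while filled blue points lie on both sides.

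SRF itself was lower in Kyse410 knockdown cells. SRF was at 73.2, 71.8 and 71.8 CPM in Kyse410 shUHRF1 libraries, against 107, 101 and 106 CPM in Kyse410 scramble libraries, and the groups did not overlap. The log2 fold change was -0.53 ± 0.0550 (SE, adjusted p = 7.36e-12). In TE10 cells SRF stood at 98.5, 107 and 90.7 CPM in shUHRF1 libraries, against 109, 108 and 111 CPM in scramble libraries, a fall of small size (-0.14 ± 0.0563, adjusted p = 0.0362). That TE10 call was lost with DESeq2, with RLE scaling and without any 1 of 5 libraries: shUHRF1 replicate 1 (log2 fold change -0.11) or 3 (-0.09), or scramble replicate 1 (-0.15), 2 (-0.16) or 3 (-0.13). The adjusted p ran between 0.00626 and 0.277 over all alternatives. The fall was larger in Kyse410 than in TE10 cells (difference of log2 fold changes -0.39 ± 0.0788, adjusted p = 6.61e-05).

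MYOCD had 0 reads in all 12 libraries, which allows up to 0.0264 CPM at a floor of 3 reads over all libraries (unscaled, counting error only). SRF's more widely expressed cofactors were measured throughout. MRTFA, the cofactor held by monomeric actin, averaged 45.3 ± 3.39 CPM in Kyse410 shUHRF1 libraries and 65.1 ± 0.881 CPM in Kyse410 scramble libraries (SD, n = 3, log2 fold change -0.53 ± 0.0685, adjusted p = 4.99e-09). In TE10 cells it averaged 32.4 ± 2.04 CPM in shUHRF1 libraries and 36.7 ± 2.44 CPM in scramble libraries, which did not pass the test (-0.18 ± 0.0842, adjusted p = 0.0848). MRTFB, its paralog, passed in neither line (log2 fold change 0.03 in TE10 and -0.04 in Kyse410 cells). ELK3, a ternary complex factor that can repress transcription, averaged 43.3 ± 5.04 CPM in TE10 shUHRF1 libraries and 81.6 ± 3.72 CPM in TE10 scramble libraries (-0.91 ± 0.0740, adjusted p = 5.96e-15).

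Cytoplasmic gamma-actin fell in both lines, and beta-actin hardly moved. ACTB, the beta-actin gene and the most abundant of the 39 per kilobase of exon in each group, was at 6363, 6688 and 6383 CPM in TE10 shUHRF1 libraries, against 6901, 6888 and 6862 CPM in TE10 scramble libraries. This was a fall of 1.06-fold (log2 fold change -0.09 ± 0.0306, adjusted p = 0.0189). The ACTB call was lost with DESeq2, with RLE scaling and without TE10 shUHRF1 replicate 1 (-0.04), shUHRF1 replicate 3 (-0.08) or scramble replicate 1 (-0.09), and its adjusted p ran between 0.00391 and 0.308 over the alternatives. In Kyse410 cells ACTB stood at 3469, 3202 and 3238 CPM in shUHRF1 libraries, against 3388, 3349 and 3475 CPM in scramble libraries, and the groups overlapped (-0.04 ± 0.0307, adjusted p = 0.249).

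ACTG1, which encodes the gamma form of cytoplasmic actin, was at 1996, 2000 and 2041 CPM in TE10 shUHRF1 libraries, against 2456, 2474 and 2460 CPM in TE10 scramble libraries (log2 fold change -0.29 ± 0.0309, adjusted p = 3.15e-11). In Kyse410 cells it was at 599, 577 and 597 CPM in shUHRF1 libraries, against 704, 689 and 704 CPM in scramble libraries (-0.24 ± 0.0322, adjusted p = 8.08e-09). Neither pair of groups overlapped. Per kilobase of exon, ACTG1 made up 26.7 ± 0.671% of the summed actin level in TE10 shUHRF1 libraries and 29.6 ± 0.0999% in TE10 scramble libraries, and 17.3 ± 0.479% in Kyse410 shUHRF1 libraries and 19.3 ± 0.197% in Kyse410 scramble libraries (SD, n = 3). The exon length here is that of all annotated exons of a gene merged, and not that of a transcript. Levels per kilobase therefore rank genes only roughly.

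The smooth muscle actins were rare. ACTA2, the alpha form of smooth muscle and of myofibroblasts, was at 1.78, 2.17 and 2.65 CPM in TE10 shUHRF1 libraries, against 3.49, 4.64 and 4.55 CPM in TE10 scramble libraries, a 1.93-fold fall (log2 fold change -0.95 ± 0.235, adjusted p = 0.000900). In Kyse410 cells ACTA2 was at 19.8, 18.6 and 17.2 CPM in shUHRF1 libraries, against 24.1, 25.1 and 25.3 CPM in scramble libraries (-0.42 ± 0.104, adjusted p = 0.000716). In GENCODE, the antisense gene ACTA2-AS1 covers 17.3% and FAS 12.8% of the ACTA2 exons on the opposite strand. These genes were counted apart from ACTA2. No source used here gives the strand setting of the counting, so how reads from the shared stretches were assigned or left out is not known. Both fell too, with log2 fold changes of -1.51 in TE10 and -0.53 in Kyse410 cells for ACTA2-AS1 and of -0.48 and -0.58 for FAS. ACTG2, the gamma form of visceral smooth muscle, passed in neither line, with 78 reads over the TE10 shUHRF1 libraries and 80 over the TE10 scramble libraries, and 9 over the Kyse410 shUHRF1 libraries and 2 over the Kyse410 scramble libraries.

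Caldesmon showed the largest change of the well-measured genes in TE10 cells. CALD1, an actin- and tropomyosin-binding inhibitor of myosin, was at 33.7, 35.3 and 38.9 CPM in TE10 shUHRF1 libraries, against 73.0, 76.8 and 80.8 CPM in TE10 scramble libraries, a 2.14-fold fall (log2 fold change -1.10 ± 0.0761, adjusted p = 1.65e-17). In Kyse410 cells CALD1 was at 22.9, 24.2 and 24.8 CPM in shUHRF1 libraries, against 30.1, 32.9 and 28.3 CPM in scramble libraries (-0.34 ± 0.0840, adjusted p = 0.000566). All knockdown libraries were below all scramble libraries of their line.

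The 4 tropomyosins, coiled coils that lie along the filament and set which proteins bind it, moved apart. TPM2 was at 22.1, 24.5 and 23.1 CPM in TE10 shUHRF1 libraries, against 14.9, 18.7 and 15.5 CPM in TE10 scramble libraries (log2 fold change 0.51 ± 0.112, adjusted p = 0.000204). In Kyse410 cells TPM2 was at 39.1, 35.6 and 36.2 CPM in shUHRF1 libraries, against 27.8, 32.9 and 26.3 CPM in scramble libraries (0.35 ± 0.0880, adjusted p = 0.000659). TPM2 was thus higher in both lines, without overlap. TPM1 fell in both (-0.22 in TE10 and -0.21 in Kyse410 cells, adjusted p = 0.00464 and 0.00497), and these calls were lost without TE10 shUHRF1 replicate 2 (-0.17, adjusted p = 0.0564) and without Kyse410 shUHRF1 replicate 3 (-0.16, adjusted p = 0.0565). In Kyse410 cells the antisense gene TPM1-AS, which covers 16.1% of the TPM1 exons, fell by 0.28 on the log2 scale.

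TPM4, the most abundant tropomyosin per kilobase in every group, was at 834, 873 and 857 CPM in TE10 shUHRF1 libraries, against 1035, 990 and 1009 CPM in TE10 scramble libraries (log2 fold change -0.24 ± 0.0336, adjusted p = 3.80e-08). In Kyse410 cells it was at 701, 707 and 711 CPM in shUHRF1 libraries, against 656, 677 and 673 CPM in scramble libraries, a rise of 1.06-fold (0.08 ± 0.0336, adjusted p = 0.0442). That rise was lost without Kyse410 shUHRF1 replicate 3 (0.08) or scramble replicate 1 (0.06), 2 (0.09) or 3 (0.08). TPM3 fell by 0.12 in TE10 cells (adjusted p = 0.0100), where the groups overlapped and the call was lost without shUHRF1 replicate 1 (-0.06) or 3 (-0.09) or scramble replicate 3 (-0.11). Per kilobase, TPM2 took 3.86 ± 0.0647% of the summed tropomyosin level in TE10 shUHRF1 libraries and 2.41 ± 0.334% in TE10 scramble libraries, and 9.05 ± 0.484% in Kyse410 shUHRF1 libraries and 7.34 ± 0.752% in Kyse410 scramble libraries (SD, n = 3). With merged exons as the length, these are not shares of transcript number.

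**Figure D2:**
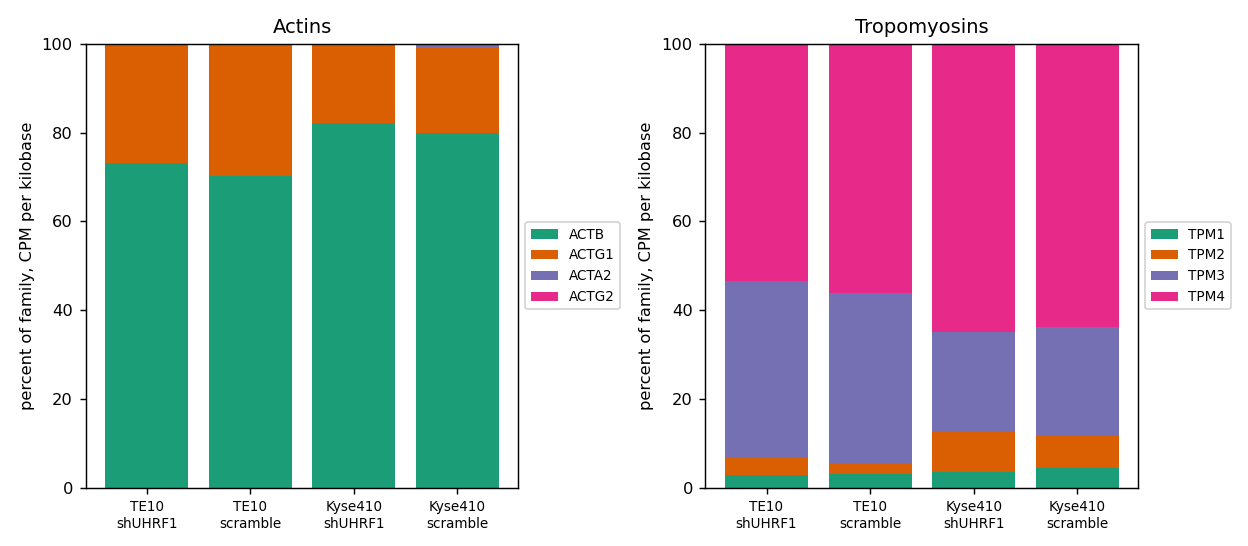
Share of each gene in the summed level of the 4 actins (left) and the 4 tropomyosins (right), in percent of CPM per kilobase of exon, as the mean of 3 libraries per group. The length is that of all annotated exons of a gene merged, so these are not shares of transcript number. ACTB and TPM4 are the main members in each group, and TPM3 takes 22.3% and 24.6% of tropomyosin in the Kyse410 groups against 39.8% and 38.4% in the TE10 groups.

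Transgelins and calponins share a calponin-homology domain and bind the side of the filament. TAGLN2, the form of non-muscle cells, fell in both lines (log2 fold change -0.14 ± 0.0406 in TE10, adjusted p = 0.00394, and -0.26 ± 0.0414 in Kyse410, adjusted p = 5.54e-07). The TE10 call was lost without shUHRF1 replicate 2 (-0.10, adjusted p = 0.0681). TAGLN, the smooth muscle form, was at 2.29, 1.02 and 1.33 CPM in TE10 shUHRF1 libraries, against 5.56, 2.50 and 3.60 CPM in TE10 scramble libraries, a fall of 2.47-fold on 36 reads in all against 98 (-1.30 ± 0.329, adjusted p = 0.00116). PCSK7, which covers 11.4% of the TAGLN exons on the opposite strand, rose in TE10 cells (0.20). CNN2, the calponin found also outside muscle, rose in Kyse410 cells to 207, 182 and 197 CPM in shUHRF1 libraries, against 153, 153 and 157 CPM in scramble libraries (0.34 ± 0.0447, adjusted p = 6.48e-09). It was at 254, 240 and 251 CPM in TE10 shUHRF1 libraries, against 254, 250 and 244 CPM in TE10 scramble libraries, which overlapped. CNN1, the smooth muscle calponin, had 4 reads over the TE10 shUHRF1 libraries, 7 over TE10 scramble, 3 over Kyse410 shUHRF1 and 1 over Kyse410 scramble libraries, and CNN3 had 5, 19, 3 and 3 reads in the same groups.

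Among the crosslinkers and capping proteins, 5 of 6 rose in Kyse410 cells, where 22.6% of all genes rose, and in TE10 cells 1 rose, where 18.8% of all genes did, and 2 fell, where 20.0% did. No test of these 6 as a group was made. FLNC, the filamin of muscle, was at 10.1, 11.3 and 12.6 CPM in Kyse410 shUHRF1 libraries, against 4.31, 3.26 and 3.41 CPM in Kyse410 scramble libraries, a 3.06-fold rise (log2 fold change 1.61 ± 0.182, adjusted p = 1.00e-10). In TE10 cells FLNC had 39 reads over the shUHRF1 libraries and 19 over the scramble libraries (1.16 ± 0.390, adjusted p = 0.0144), and this call was lost without shUHRF1 replicate 2 (1.06, adjusted p = 0.0562) or scramble replicate 1 (0.99, adjusted p = 0.0636). CAPG, which caps the growing end of the filament, was at 161, 147 and 148 CPM in Kyse410 shUHRF1 libraries, against 105, 105 and 98.6 CPM in Kyse410 scramble libraries (0.56 ± 0.0501, adjusted p = 6.30e-14). Its TE10 groups overlapped (133 ± 6.42 CPM in shUHRF1 and 133 ± 5.94 CPM in scramble libraries, SD, n = 3).

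The alpha-actinins ACTN1 and ACTN4 crosslink filaments into bundles. ACTN1 was at 372, 376 and 384 CPM in TE10 shUHRF1 libraries, against 476, 484 and 470 CPM in TE10 scramble libraries (log2 fold change -0.34 ± 0.0388, adjusted p = 3.08e-10). In Kyse410 cells it was at 328, 299 and 302 CPM in shUHRF1 libraries, against 236, 231 and 238 CPM in scramble libraries (0.40 ± 0.0395, adjusted p = 2.32e-12). ACTN1 therefore fell in one line and rose in the other, without overlap in either. ACTN4 rose by 0.15 in Kyse410 cells (adjusted p = 0.000110), where CAPN12, which covers 14.2% of its exons on the opposite strand, rose too (0.38, log2). LIMA1, which bundles filaments and slows their turnover, fell in TE10 (-0.36 ± 0.0358) and rose in Kyse410 cells (0.12 ± 0.0345), with adjusted p = 6.25e-12 and 0.00444. FLNA, the abundant filamin that links filaments to membrane receptors, fell in Kyse410 cells to 1397, 1320 and 1330 CPM in shUHRF1 libraries, against 1829, 1760 and 1827 CPM in scramble libraries (-0.42 ± 0.0315, adjusted p = 1.50e-16). In TE10 cells it did not pass the test (-0.04, adjusted p = 0.300).

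Non-muscle myosin II is a motor of heavy chains (MYH9, MYH10) and light chains (MYL6, the essential chain, and MYL9, a regulatory chain). MYH9 fell in both lines, with 784 ± 22.4 CPM in TE10 shUHRF1 libraries and 945 ± 8.92 CPM in TE10 scramble libraries (log2 fold change -0.27 ± 0.0349, adjusted p = 8.03e-09), and 545 ± 13.4 CPM in Kyse410 shUHRF1 libraries and 720 ± 23.3 CPM in Kyse410 scramble libraries (-0.40 ± 0.0350, adjusted p = 2.84e-14, SD, n = 3). MYH10 fell in TE10 cells, with 44.1, 41.7 and 50.4 CPM in shUHRF1 libraries, against 57.5, 59.4 and 59.4 CPM in scramble libraries (-0.37 ± 0.0752, adjusted p = 5.65e-05), and its Kyse410 groups overlapped (0.02, adjusted p = 0.886). MYL6 was at 65.4, 57.2 and 44.8 CPM in Kyse410 shUHRF1 libraries, against 87.4, 82.7 and 82.3 CPM in Kyse410 scramble libraries (-0.58 ± 0.0843, adjusted p = 5.99e-08). In TE10 cells MYL6 was at 165, 143 and 180 CPM in shUHRF1 libraries, against 139, 173 and 130 CPM in scramble libraries, and the groups overlapped (0.14, adjusted p = 0.124), while without shUHRF1 replicate 2 (0.23, adjusted p = 0.0151) or scramble replicate 2 (0.28, adjusted p = 0.00351) it passed as a rise. SMARCC2, which covers 11.2% of the MYL6 exons on the opposite strand, passed in neither line (-0.06 in TE10 and 0.04 in Kyse410 cells). MYL6B, which covers 1.93% on the same strand, fell in both lines (-0.57 in TE10 and -0.50 in Kyse410 cells, adjusted p = 1.15e-06 and 3.82e-06). The antisense gene AC034102.5, which covers 0.824%, passed in neither (-0.17 in TE10 and -0.49 in Kyse410 cells, adjusted p = 0.575 and 0.0550). MYL9 rose in Kyse410 cells (0.47 ± 0.154, adjusted p = 0.00998), a call lost without scramble replicate 1 (0.32, adjusted p = 0.119).

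Focal adhesion genes included the fall with the smallest adjusted p of the 36 genes in TE10 cells. VCL encodes vinculin, which ties talin to actin under tension, and was at 340, 351 and 338 CPM in TE10 shUHRF1 libraries, against 550, 559 and 556 CPM in TE10 scramble libraries, a 1.62-fold fall (log2 fold change -0.69 ± 0.0370, adjusted p = 5.14e-22). In Kyse410 cells it was at 300, 296 and 295 CPM in shUHRF1 libraries, against 309, 322 and 319 CPM in scramble libraries (-0.09 ± 0.0371, adjusted p = 0.0359). The Kyse410 call was lost with DESeq2, with RLE scaling, without the filter on low counts, in a fit of the Kyse410 libraries alone, and without shUHRF1 replicate 2 (-0.07) or 3 (-0.09) or scramble replicate 2 (-0.08) or 3 (-0.09). TLN1, talin, the integrin activator that vinculin binds, rose in both lines, to 365, 371 and 381 CPM in TE10 shUHRF1 libraries, against 304, 307 and 314 CPM in TE10 scramble libraries (0.27 ± 0.0398, adjusted p = 1.50e-07), and to 334, 316 and 324 CPM in Kyse410 shUHRF1 libraries, against 293, 269 and 280 CPM in Kyse410 scramble libraries (0.21 ± 0.0390, adjusted p = 9.57e-06). Talin and vinculin transcripts thus went in opposite directions in TE10 cells.

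Zyxin and its partner ENAH, which add filaments at strained adhesions, fell in Kyse410 cells. ZYX was at 159, 150 and 146 CPM in Kyse410 shUHRF1 libraries, against 249, 242 and 247 CPM in Kyse410 scramble libraries (log2 fold change -0.70 ± 0.0422, adjusted p = 4.13e-20). In TE10 cells it was at 225, 219 and 216 CPM in shUHRF1 libraries, against 224, 233 and 231 CPM in scramble libraries, which overlapped (-0.06, adjusted p = 0.284). ENAH was at 133, 132 and 136 CPM in Kyse410 shUHRF1 libraries, against 189, 187 and 182 CPM in Kyse410 scramble libraries (-0.47 ± 0.0439, adjusted p = 2.32e-13), and its TE10 groups overlapped. EPHA1, which covers 2.35% of the ZYX exons on the opposite strand, fell by 0.48 in Kyse410 cells. VASP, the paralog of ENAH, rose in TE10 cells, with 169, 148 and 155 CPM in shUHRF1 libraries, against 135, 129 and 137 CPM in scramble libraries (0.23 ± 0.0516, adjusted p = 0.000239). PXN, the scaffold paxillin, passed in neither line (-0.04 in TE10 and 0.05 in Kyse410 cells).

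The tensins, which link integrin tails to actin, split by gene and line. TNS4, a short tensin without the actin-binding part, was at 802, 756 and 766 CPM in Kyse410 shUHRF1 libraries, against 410, 386 and 421 CPM in Kyse410 scramble libraries, a 1.91-fold rise (log2 fold change 0.93 ± 0.0377, adjusted p = 2.88e-27). In TE10 cells TNS4 was at 385, 413 and 384 CPM in shUHRF1 libraries, against 468, 481 and 472 CPM in scramble libraries, a fall (-0.27 ± 0.0393, adjusted p = 1.82e-07). TNS3, a full-length tensin, fell in Kyse410 cells to 193, 184 and 185 CPM in shUHRF1 libraries, against 284, 272 and 296 CPM in scramble libraries (-0.60 ± 0.0427, adjusted p = 2.19e-17). Its TE10 libraries overlapped, with 142, 131 and 136 CPM in shUHRF1 and 141, 133 and 143 CPM in scramble libraries. The remaining tensins, from the list of other focal adhesion genes, moved too: TNS1 averaged 2.07 ± 0.500 CPM in TE10 shUHRF1 libraries and 26.4 ± 1.52 CPM in TE10 scramble libraries (SD, n = 3, log2 fold change -3.67 ± 0.169, adjusted p = 1.27e-24), and TNS2 fell by 1.45 in TE10 cells (adjusted p = 3.65e-21). In Kyse410 cells TNS1 fell by 0.94 and TNS2 rose by 0.49 (adjusted p = 7.94e-10 and 2.58e-10).

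**Figure D3:**
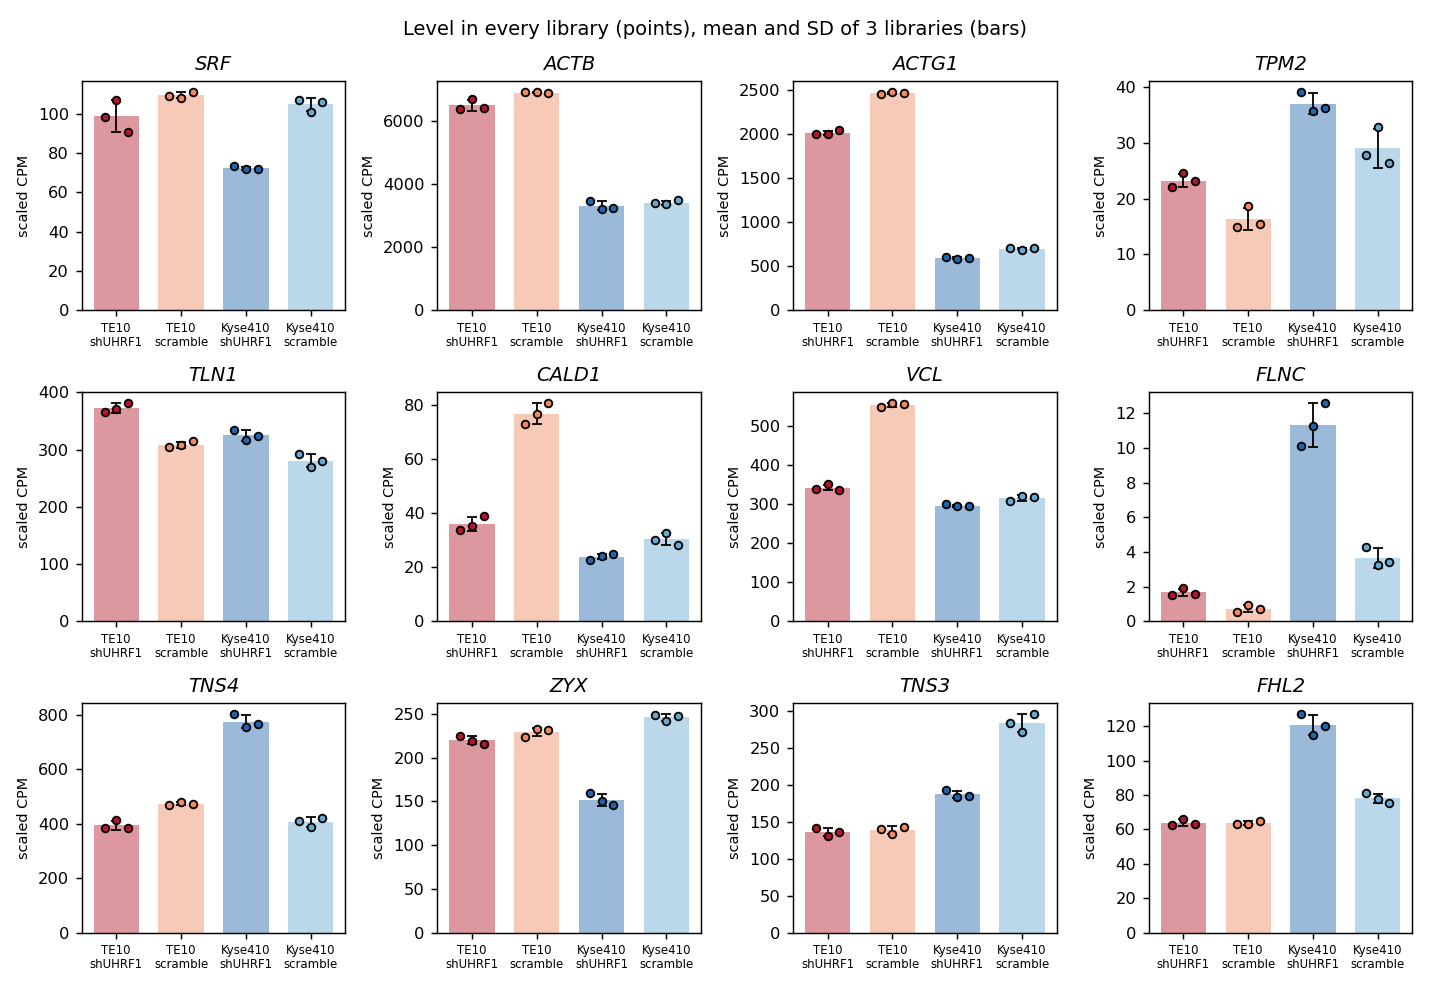
Level in every library (points, TMM-scaled CPM on a linear axis starting at 0) of 12 genes, with the mean and SD of the 3 libraries of each group as bars. CALD1 and VCL are lower in TE10 shUHRF1 than in TE10 scramble libraries, and TNS4, FHL2 and FLNC are higher in Kyse410 shUHRF1 than in Kyse410 scramble libraries.

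Proteins with LIM domains bind strained filaments or Z-disc proteins. FHL2, which also binds SRF, and whose 2 CArG boxes are shown above, was at 127, 115 and 120 CPM in Kyse410 shUHRF1 libraries, against 80.9, 77.7 and 75.6 CPM in Kyse410 scramble libraries (log2 fold change 0.63 ± 0.0535, adjusted p = 1.27e-14). In TE10 cells it was at 62.3, 66.1 and 63.3 CPM in shUHRF1 libraries, against 63.4, 62.9 and 65.1 CPM in scramble libraries, and the groups overlapped (0.00 ± 0.0634, adjusted p = 0.992). FHL1, best known from striated muscle, rose in Kyse410 cells by 0.17 (adjusted p = 0.00144). FHL3, with 443 reads over the Kyse410 shUHRF1 libraries and 604 over the Kyse410 scramble libraries, fell by 0.42 (adjusted p = 0.00539), a call lost with DESeq2 and without shUHRF1 replicate 2 (-0.30, adjusted p = 0.0875). In TE10 cells FHL3 did not pass (-0.38, adjusted p = 0.0685), and it passed as a fall without shUHRF1 replicate 2 (-0.56) and without scramble replicate 3 (-0.56).

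PDLIM7, a PDZ and LIM protein that binds tropomyosin, fell in both lines. It was at 134, 131 and 118 CPM in TE10 shUHRF1 libraries, against 177, 169 and 184 CPM in TE10 scramble libraries (log2 fold change -0.47, adjusted p = 3.38e-11), and its Kyse410 fold change was -0.28 ± 0.0489 (adjusted p = 2.99e-06). PDLIM5 rose by 0.14 in Kyse410 cells (adjusted p = 0.0134), a call lost without shUHRF1 replicate 2 (0.11) or scramble replicate 1 (0.13). In TE10 cells PDLIM5 did not pass (0.11, adjusted p = 0.0833), and it passed as a rise with RLE scaling (0.13) and without shUHRF1 replicate 1 (0.21).

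Set side by side, the knockdowns of the lines, which share no libraries, gave 12 genes the same call and 4 opposite calls. The 9 genes that fell in both were SRF, ACTA2, ACTG1, CALD1, TPM1, TAGLN2, MYH9, VCL and PDLIM7 (25.0% of the 36, where 9.03% of all genes fell in both), of which SRF in TE10 and VCL in Kyse410 cells are the least firm. The calls of TPM1 in each line and of TAGLN2 in TE10 cells were each lost without 1 library. FLNC, TLN1 and TPM2 rose in both (8.33%, where 6.96% of all genes rose in both), and the FLNC call in TE10 cells was lost in 2 alternatives. ACTN1, LIMA1, TPM4 and TNS4 fell in TE10 and rose in Kyse410 cells (11.1%, where 3.63% of all genes did), and none of the 36 did the reverse, as 4.29% of all genes did. Of these, the rise of TPM4 in Kyse410 cells is not firm, as it was lost without any 1 of 4 libraries. ACTG2 and PXN passed in neither. These shares, and those of the difference that follow, stand beside all genes, and not beside the genes of at least 100 CPM. The test of the difference, Kyse410 minus TE10 log2 fold change, was positive for 14 genes, where 19.0% of all genes were, and negative for 8, where 19.9% were. Its largest positive values among genes averaging at least 5 CPM were TNS4 at 1.20 ± 0.0544 (adjusted p = 1.56e-24), CALD1 at 0.76 ± 0.114 (2.97e-07), ACTN1 at 0.74 ± 0.0554 (5.95e-16) and FHL2 at 0.63 ± 0.0830 (1.31e-08). The largest negative values were MYL6 at -0.73 ± 0.113 (5.08e-07), ZYX at -0.64 ± 0.0602 (1.02e-12), TNS3 at -0.57 ± 0.0651 (3.41e-10) and ENAH at -0.44 ± 0.0612 (3.87e-08). For ACTG1 the difference, 0.05 ± 0.0447, did not pass the test (adjusted p = 0.417).

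**Figure D4:**
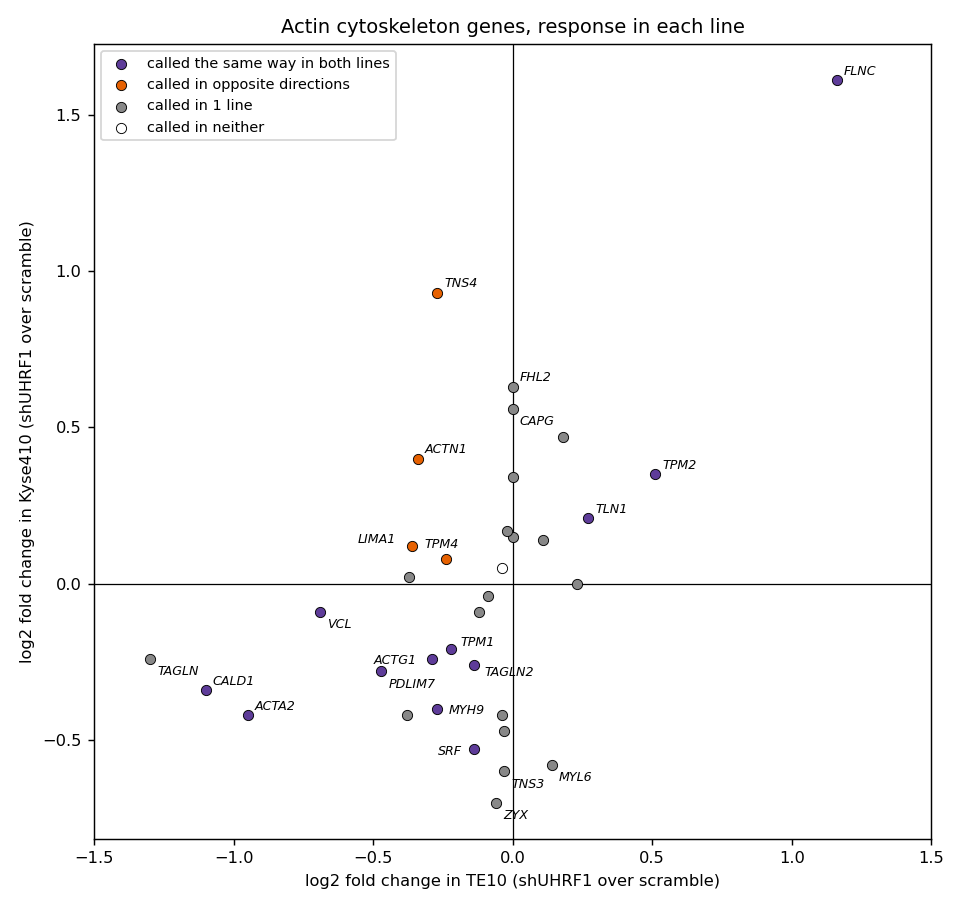
Log2 fold change of shUHRF1 over scramble cells in TE10 (horizontal axis) and in Kyse410 (vertical axis) for 35 genes, leaving out ACTG2 because of its few reads, coloured by whether the gene passed the test in both lines, in opposite directions, in 1 line or in neither. The 9 purple points at the lower left fell in both lines, and the 4 orange points at the upper left fell in TE10 and rose in Kyse410 cells.

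The scramble controls of the lines differed in most of these genes. In Kyse410 scramble cells 22 of the 36 genes were lower than in TE10 scramble cells (61.1%, where 37.1% of all genes were lower), and 10 were higher (27.8%, where 36.7% were higher), with a median of -0.31 against -0.00154 over all genes, of which 73.7% were called in either direction. The difference was at least 2-fold for 9 of the 36, where 28.2% of all genes had one, and the libraries did not overlap for 35 of the 36, where 76.1% of all genes did not. Among the 24 genes of at least 100 CPM, 17 were lower (70.8%, against 49.0% of the abundant genes) and 5 higher (20.8%, against 41.0%). Each line is 1 line, so a difference between them is one between these cultures. This comparison shares its libraries with both knockdown comparisons.

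Both cytoplasmic actins were lower in Kyse410 cells, and ACTG1 had the largest difference of the lower genes averaging at least 5 CPM. ACTG1 was at 704, 689 and 704 CPM in Kyse410 scramble libraries, against 2456, 2474 and 2460 CPM in TE10 scramble libraries, 3.52-fold lower in Kyse410 cells (log2 fold change -1.82 ± 0.0322, adjusted p = 1.56e-44). ACTB was 2.02-fold lower (-1.02 ± 0.0309, adjusted p = 8.18e-34), and TPM3 2.68-fold lower, at 249, 255 and 249 CPM in Kyse410 scramble libraries, against 672, 664 and 682 CPM in TE10 scramble libraries (-1.42 ± 0.0397, adjusted p = 1.52e-35). CALD1 (-1.34 ± 0.0740) and ACTN1 (-1.02 ± 0.0393) followed, with adjusted p = 1.46e-22 and 2.69e-29. All 4 myosin genes were lower in Kyse410 cells, where 37.1% of all genes were lower, by -0.39 (MYH9) to -0.80 (MYL6) on the log2 scale.

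Among genes averaging at least 5 CPM, those higher in Kyse410 cells were led by ACTA2, at 24.1, 25.1 and 25.3 CPM in Kyse410 scramble libraries, against 3.49, 4.64 and 4.55 CPM in TE10 scramble libraries (log2 fold change 2.54 ± 0.141, adjusted p = 1.65e-22), with the overlap of its exons named above. TNS3 was at 284, 272 and 296 CPM in Kyse410 scramble libraries, against 141, 133 and 143 CPM in TE10 scramble libraries (1.03 ± 0.0450, adjusted p = 7.50e-27). FHL1 (0.85, adjusted p = 2.33e-21) and TPM2 (0.83 ± 0.103, adjusted p = 5.60e-10) came next. FLNC, below that level, had a log2 fold change of 2.29 ± 0.314 (adjusted p = 6.05e-09). Of the 5 LIM and PDZ-LIM genes, 4 were higher, where 36.7% of all genes were, and PDLIM7 was lower. SRF did not pass the test between the lines (-0.06 ± 0.0539, adjusted p = 0.295), though its 3 Kyse410 libraries (101 to 107 CPM) lay below its 3 TE10 libraries (108 to 111 CPM). ACTG2 had 2 reads over the Kyse410 scramble libraries and 80 over the TE10 scramble libraries. ZYX was 1.07-fold higher in Kyse410 cells (0.10, adjusted p = 0.0268), a call lost without TE10 scramble replicate 1 (0.08) or 3 (0.10) or Kyse410 scramble replicate 1 (0.09) or 3 (0.10).

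**Figure D5:**
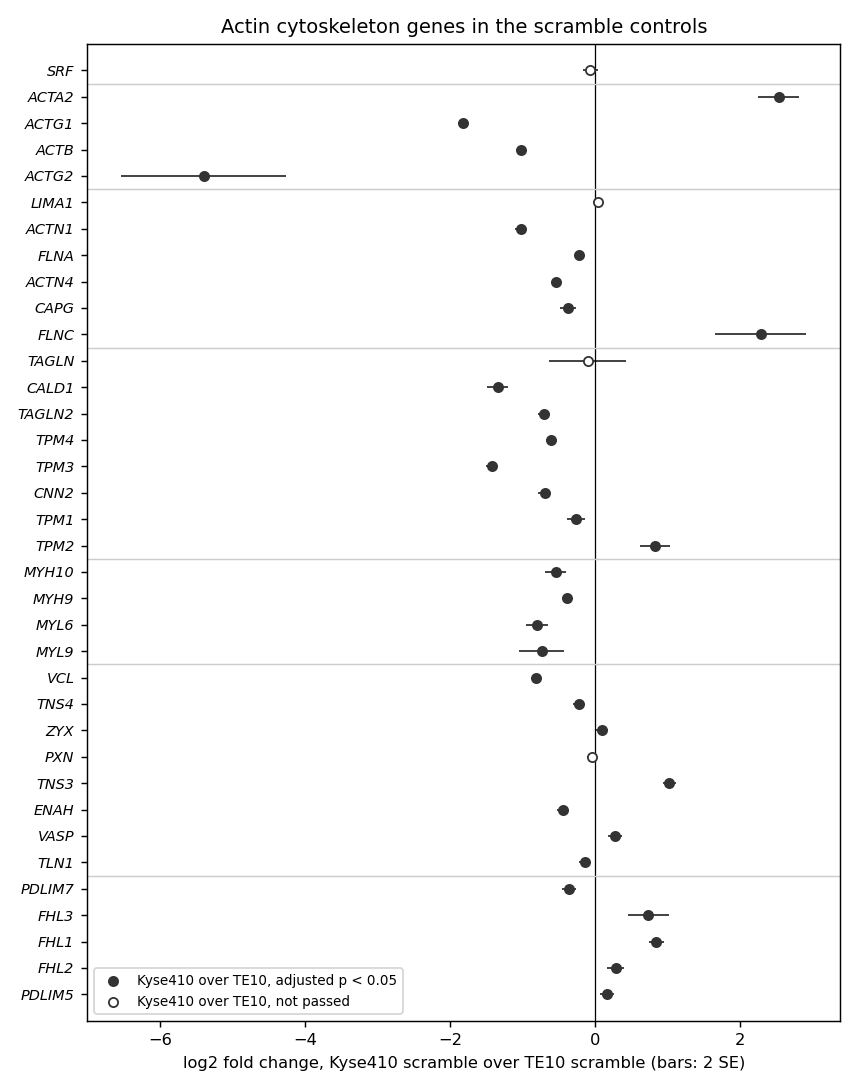
Log2 fold change of Kyse410 scramble over TE10 scramble cells for the 36 tested genes, grouped by role, with bars of 2 standard errors and filled points for adjusted p under 0.05. Both cytoplasmic actins and all 4 myosin genes lie left of 0, and ACTA2, FLNC, TNS3 and most LIM genes lie right of it.

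Other lists around SRF and actin give the surroundings of these genes. Their counts stand beside the shares of all genes that fell (20.0% in TE10 and 26.7% in Kyse410 cells) and rose (18.8% and 22.6%), and no list was tested as a whole. Of 10 immediate early genes under SRF and the ternary complex factors, leaving out SRF itself, 9 fell and none rose in Kyse410 cells (median log2 fold change -0.63), and 4 fell and none rose in TE10 cells (-0.31). The TE10 median includes EGR2, with 4 reads in shUHRF1 and 9 in scramble libraries, and EGR3, with 7 and 10. All 10 were higher in Kyse410 than in TE10 scramble cells (median 3.91), where 36.7% of all genes were. EGR1, a zinc finger factor induced within minutes of a stimulus, averaged 941 ± 17.7 CPM in Kyse410 shUHRF1 libraries and 2021 ± 36.0 CPM in Kyse410 scramble libraries (-1.10 ± 0.0335, adjusted p = 1.15e-32). FOSB fell by 1.79 and FOS by 0.75 in Kyse410 cells (adjusted p = 3.12e-25 and 2.97e-19). In TE10 cells MCL1, a survival factor, fell by 0.84, the AP-1 subunit JUNB by 0.46 and EGR1 by 0.29 (adjusted p = 6.49e-25, 1.70e-12 and 0.00374).

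Of 16 genes of the YAP and TEAD pathway, which also responds to actin tension, 11 fell and 3 rose in Kyse410 cells (median log2 fold change -0.48), where 26.7% of all genes fell and 22.6% rose. In TE10 cells 5 fell and 6 rose (-0.01), where 20.0% of all genes fell and 18.8% rose. The matricellular target CCN1 fell in both lines, by 1.11 in Kyse410 and 0.44 in TE10 cells (adjusted p = 3.29e-31 and 1.15e-11). CCN2, its paralog and a target shared by both pathways, averaged 34.1 ± 2.24 CPM in Kyse410 shUHRF1 libraries and 103 ± 3.31 CPM in Kyse410 scramble libraries (-1.59 ± 0.0693, adjusted p = 5.91e-26), and did not pass in TE10 cells (-0.15, adjusted p = 0.476). AXL, a receptor tyrosine kinase, fell by 0.65 in Kyse410 and 0.45 in TE10 cells (adjusted p = 5.30e-22 and 2.03e-13). WWTR1, which encodes the YAP paralog TAZ, fell by 0.50 in TE10 cells and rose by 0.49 in Kyse410 cells (adjusted p = 1.06e-12 and 3.43e-13).

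Of 33 genes of actin nucleation and monomer binding, 15 fell and 8 rose in TE10 cells (median log2 fold change -0.09), and 11 fell and 10 rose in Kyse410 cells (-0.04). Of all genes, 20.0% fell and 18.8% rose in TE10 cells, and 26.7% fell and 22.6% rose in Kyse410 cells. FMNL1, a formin, fell in both lines (-1.29 in TE10 and -0.88 in Kyse410 cells, adjusted p = 2.01e-19 and 6.44e-19). TMSB4X, which sequesters monomeric actin, fell in both too (-0.60 and -0.87, adjusted p = 1.69e-15 and 1.46e-22). EZR, the linker ezrin, rose by 0.41 in TE10 cells (adjusted p = 8.07e-14), and CAP1, which recycles actin monomers, fell by 0.59 in Kyse410 cells (adjusted p = 5.64e-13).

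Of 23 other focal adhesion genes, 9 fell and 8 rose in TE10 cells (median log2 fold change -0.07), and 7 fell and 4 rose in Kyse410 cells (-0.04). The shares of all genes beside them were 20.0% and 18.8% in TE10 cells, and 26.7% and 22.6% in Kyse410 cells. Beside the tensins given above, FERMT2, the integrin activator kindlin-2, rose by 0.56 in TE10 cells (adjusted p = 5.08e-12). The pseudokinase ILK fell by 0.63 in Kyse410 cells, and the LIM proteins CSRP1 and TRIP6 by 0.46 and 0.66 (adjusted p = 2.95e-17, 1.12e-14 and 1.39e-14). Of 6 SRF cofactors, leaving out FHL2, 2 fell and 1 rose in TE10 cells (-0.08), and 2 fell and none rose in Kyse410 cells (-0.11). Beside ELK3 and MRTFA, these were ELK1 (-0.20 in TE10 and -0.18 in Kyse410 cells, adjusted p = 0.0292 and 0.0367) and ELK4 (0.18 in TE10 cells, adjusted p = 0.0312).

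Markers of other cell types were mostly low. Of 10 smooth muscle genes, which include ACTA2, CNN1 and MYOCD, MYOCD and PLN were at 0 in every library, and the summed level of the 10 ran from 78.9 to 83.8 CPM in TE10 shUHRF1 and 76.2 to 86.3 CPM in TE10 scramble libraries, and from 83.6 to 93.5 CPM in Kyse410 shUHRF1 and 78.5 to 81.2 CPM in Kyse410 scramble libraries. Of 5 tested ones, DES and ACTA2 fell in TE10 cells, and MYH11 and SMTN rose while ACTA2 fell in Kyse410 cells. Of 10 fibroblast genes 2 were tested: COL1A1 rose by 0.26 in TE10 and 0.43 in Kyse410 cells, and PDGFRB fell by 2.25 and 0.74, while the summed level was 49.8 to 56.4 CPM in TE10 shUHRF1 and 44.4 to 48.1 CPM in TE10 scramble libraries, and 150 to 163 CPM in Kyse410 shUHRF1 and 114 to 125 CPM in Kyse410 scramble libraries. DCN and LUM, defining genes of fibroblasts, had no reads in 3 of the 4 groups. Of 9 endothelial and blood genes CDH5 was tested, and it averaged 95.7 ± 7.63 CPM in Kyse410 shUHRF1 libraries and 24.7 ± 0.170 CPM in Kyse410 scramble libraries (SD, n = 3, log2 fold change 1.95, against 0.62 in TE10 cells), while PTPRC had 0 reads in both of these groups. The 8 genes of that list found by name summed to 12.9 to 16.0 CPM in TE10 shUHRF1 and 8.14 to 11.3 CPM in TE10 scramble libraries, and to 92.0 to 106 CPM in Kyse410 shUHRF1 and 25.3 to 25.4 CPM in Kyse410 scramble libraries.

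Squamous markers, read as a check of the labelled cell type, had reads in all groups, though PKP1 averaged 0.705 CPM or less in each. The summed level of these markers was 1612 to 1696 CPM in TE10 shUHRF1 and 1850 to 1896 CPM in TE10 scramble libraries, and 1211 to 1219 CPM in Kyse410 shUHRF1 and 947 to 975 CPM in Kyse410 scramble libraries. In Kyse410 scramble libraries its largest parts were PERP (258 CPM), SFN (198), EPCAM (146) and CDH1 (113). TP63 (97.5) and KRT17 (81.0) followed, while KRT14 averaged 4.39, DSG3 11.7 and PKP1 0.0903 CPM there. The sum alone therefore does not establish squamous identity. Of 11 tested, 8 fell and 3 rose in TE10 cells, where 20.0% and 18.8% of all genes did. In Kyse410 cells 2 fell and 7 rose, where 26.7% and 22.6% of all genes did. KRT5, the basal keratin, averaged 8.05 ± 0.455 CPM in TE10 shUHRF1 libraries and 67.4 ± 1.06 CPM in TE10 scramble libraries, and 1.37 ± 0.267 CPM in Kyse410 shUHRF1 libraries and 1.14 ± 0.567 CPM in Kyse410 scramble libraries. Its log2 fold change in TE10 cells was -3.06, and that of KRT14, its partner, -2.28 (adjusted p = 4.21e-28 and 5.66e-23). CDH1, the epithelial cadherin, went the other way and rose in both lines, by 1.20 in TE10 and 0.79 in Kyse410 cells (adjusted p = 3.06e-24 and 6.38e-21). In Kyse410 cells SFN, a 14-3-3 protein of epithelia, rose by 0.65 and KRT17 fell by 0.98 (adjusted p = 5.85e-20 and 5.64e-19). Mitochondrially encoded transcripts took 4.75 ± 0.370% of gene reads in TE10 shUHRF1 libraries and 5.37 ± 0.0495% in TE10 scramble libraries, and 2.82 ± 0.0326% in Kyse410 shUHRF1 libraries and 1.66 ± 0.0632% in Kyse410 scramble libraries (SD, n = 3). All 13 of these transcripts rose in Kyse410 cells, with the smallest adjusted p for MT-CO3 (0.88), MT-CO2 (0.97) and MT-ATP6 (1.01, log2), and in TE10 cells 7 fell, among them MT-ND5 by 0.42 and MT-ND6 by 0.59, and MT-ND4L rose by 0.60. The part of the mitochondrial share, the squamous markers and the markers of other cell types in the results of the actin genes was not tested.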

How the data were processed

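Polyadenylated RNA of 12 libraries in 4 groups was sequenced. The deposited files hold whole-number counts of reads per gene, 1 file per library. Tools listed in the submitters' processing notes are HISAT2 2.1.0, HTSeq 0.9.1, bcl2fastq 2.19 and DESeq2, with GRCh37.p13 as the build; the annotation release, strandedness, order and options are not given there. HTSeq gave 42.88 to 44.66% of a library's reads to no feature, 5.488 to 6.865% were not unique and 1.381 to 1.977% were ambiguous. These classes stayed out of library sizes and tests. Without unique alignment a read of a near-identical paralog or pseudogene is dropped or uncertain: of the 50-base stretches of exons, 7.14% of those of TPM4, 5.84% of TAGLN2 and 4.84% of ACTB also occur in another gene.

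GENCODE on GRCh38 gave symbols for 51997 of the 57820 identifiers, holding 98.9% of gene reads, as well as exon lengths and overlaps, while the identifier of UHRF1 was assigned manually. The exon length of a gene is that of all its annotated exons merged. Genes were kept by filterByExpr, scaled by TMM and tested in 1 quasi-likelihood fit of all libraries (edgeR 4.0.16, limma 3.58.1, R 4.3.3, 8 residual degrees of freedom), a step tested on simulated data. The contrasts were shUHRF1 minus scramble in each line, Kyse410 minus TE10 of these, and Kyse410 minus TE10 scramble. Benjamini-Hochberg adjustment ran over the 16060 genes tested, with calls under 0.05. Replicates differed by more than counting noise, with a chi-square per degree of freedom of 1.57 to 2.92 between pairs, so none was merged. Tables and plots used Python 3.11.15, pandas 2.3.3, numpy 2.4.6 and matplotlib 3.10.9.

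The 39 genes and the 12 gene lists were chosen with earlier results of these data known. One of these lists is not reported here. The text names SRF, MYOCD, ACTB, ACTG1 and UHRF1 whatever their values, and, for each contrast, the 4 largest called rises and falls of genes averaging at least 5 CPM over its libraries, with up to 3 called genes of smallest adjusted p per other list and knockdown. Other genes singled out, such as ACTN4, FAS or MRTFB, were named after their values were seen. The level of 100 CPM and the searches for overlaps and shared stretches were added with the data in view. Alternatives were DESeq2 1.42.0, RLE scaling, no filter, CPM of at least 1 in 3 libraries, a fit of the contrast's libraries alone, the replicate number as a block, and leaving out each library.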

Additional observations from a re-analysis of the deposited data

Results flagged for a closer look

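For 22 of the 36 tested genes the response to UHRF1 knockdown differed between the lines by the test of the difference itself (Kyse410 minus TE10 log2 fold change, adjusted p under 0.05 over all genes), where 38.9% of all tested genes differed. Of the 24 genes of at least 100 CPM, 17 differed (70.8%). The share among all genes of that level was not taken, so this 70.8% has no share beside it and is no result about these genes. The part of abundance in these counts was not tested. The difference between the lines was 1.20 for TNS4, 0.74 for ACTN1, 0.47 for LIMA1 and 0.32 for TPM4. These genes were called in opposite directions, each lower in TE10 and higher in Kyse410 knockdown cells. For TPM4 the Kyse410 rise was lost without any 1 of 4 libraries. In 5 further genes the Kyse410 rise had no called counterpart in TE10 cells: FHL2 (0.63), CAPG (0.57), CNN2 (0.34), FHL1 (0.19) and ACTN4 (0.15). The difference was 0.76 for CALD1, 0.60 for VCL and 0.19 for PDLIM7, which fell in both lines and more in TE10 cells. It was 1.06 for TAGLN and 0.39 for MYH10, which fell in TE10 cells and did not pass in Kyse410 cells.

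The negative differences were -0.73 for MYL6, -0.64 for ZYX, -0.57 for TNS3, -0.44 for ENAH, -0.39 for SRF, -0.38 for FLNA and -0.13 for MYH9, with a lower fold change in Kyse410 cells. For VASP the value was -0.23, from a rise in TE10 cells. Calls of TAGLN (0.74 without TE10 scramble replicate 1, to 1.11 without TE10 scramble replicate 3), FHL1 (0.14 without TE10 shUHRF1 replicate 1), PDLIM7 (0.14 without TE10 shUHRF1 replicate 3) and MYH9 (-0.09 without Kyse410 shUHRF1 replicate 2) were lost in several alternatives. The highest adjusted p over the alternatives was 0.199 for TAGLN, 0.127 for FHL1, 0.139 for PDLIM7 and 0.179 for MYH9.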

How the results depend on the processing

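In every alternative, each count of called genes stayed within 1.5 times of its value in the report. Leaving out 1 library at a time gave 3 to 5 genes higher and 14 to 16 lower in TE10 cells, 11 to 14 higher and 13 to 16 lower in Kyse410 cells, 11 to 14 positive and 7 to 9 negative differences, and 9 to 10 higher and 22 lower between scramble controls. No shared shift of same-numbered libraries was seen (correlation of deviations -0.0123 to 0.0371, against -0.0583 to 0.0334 for other pairs). Whether same-numbered libraries share a source is not known from this. The fit with the replicate number as a block called 4 higher and 18 lower in TE10 cells and 14 higher and 16 lower in Kyse410 cells. Of 1960 single-gene values recomputed, 67 lost a call, 14 gained one and 45 changed sign, none of the 45 with a call, and no called value moved by over 1.5-fold. The causes were not tested.

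The log2 fold changes that changed sign were uncalled in the report and under the settings that changed them. In TE10 cells DESeq2 gave CAPG 0.017, CNN2 0.016 and FHL1 0.0022, and RLE scaling gave them 0.019, 0.018 and 0.0041. Without the filter ACTN4 was -0.0084 and FHL2 -0.011, and FHL2 was -0.0013 in the TE10 libraries alone. VASP in Kyse410 cells was 0.0084 with DESeq2, 0.013 with RLE scaling, 0.0099 without the filter and 0.024 in the Kyse410 libraries alone. With 1 library left out, TE10 values ran from -0.026 to 0.05 (ACTN4), -0.04 to 0.019 (CAPG), -0.02 to 0.019 (CNN2), -0.07 to 0.035 (ENAH), -0.06 to 0.052 (FHL1) and -0.023 to 0.05 (FHL2). Kyse410 values ran from -0.08 to 0.00085 (ACTB), -0.031 to 0.05 (MYH10) and -0.04 to 0.037 (VASP). Differences ran from -0.22 to 0.14 (FHL3), -0.051 to 0.07 (PDLIM5), -0.038 to 0.07 (TPM1) and -0.0043 to 0.08 (TPM3), and TAGLN between scramble controls ran from -0.33 to 0.22. In Kyse410 cells ACTB passed as a fall without shUHRF1 replicate 1 (-0.08, adjusted p = 0.0228). TPM3 passed as a fall with the replicate block (-0.09, adjusted p = 0.0437), and so did FHL3 in TE10 cells (-0.39, adjusted p = 0.0375). Depth limits ACTG2, TAGLN, FLNC in TE10 cells, CNN1, CNN3 and MYOCD, for which counts are few or 0.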
